A study of Mus musculus with 10 samples.

Results

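Ido1 and the genes around it in the pathway from tryptophan through kynurenine to the aryl hydrocarbon receptor (AhR) were followed in mouse colon tumors with and without deletion of Wls in the epithelium. The set was given by name as 10 genes, Ido1, Tdo2, Kynu, Kmo, Haao, Ahr, Ahrr, Tiparp, Wars and Afmid, and 6 of them were among the 16875 gene names of the expression table. Tdo2, Kmo, Haao and Ahrr were not analysed here. Ido1 was chosen by its large difference between the 2 groups in these same 10 tumors, so its values are given as a description and without a test. The other 5 genes present, Kynu, Ahr, Tiparp, Wars and Afmid, were named for their place in the pathway, with earlier results of these data known.

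Indoleamine 2,3-dioxygenase, the product of Ido1, and tryptophan 2,3-dioxygenase, the product of Tdo2, open the ring of tryptophan in the first and rate-limiting step of its breakdown. The formamidase Afmid then releases kynurenine, which Kynu (kynureninase) and Kmo (kynurenine monooxygenase) process further, with Haao acting later on the way to NAD. Kynurenine and its product kynurenic acid are ligands of AhR, a transcription factor whose targets include its own repressor Ahrr and Tiparp, an ADP-ribosyltransferase that modifies AhR. Wars charges the tryptophan tRNA and so draws on the same amino acid. Interferon-gamma is a classical inducer of both Ido1 and Wars, in epithelial cells as well as in macrophages and dendritic cells.

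The tumors had been induced in C57BL/6 mice by azoxymethane (AOM, a carcinogen) and 3 cycles of dextran sulfate sodium (DSS, which inflames the colon), and were collected 120 days after AOM from mice that were 6 to 10 weeks old at the start. The 5 control tumors had the genotype Wls control (Wls flox/flox), and the 5 others were Villin-Wls cKO, which joins Villin-Cre ERT2 to Wls flox/flox and in which Cre, driven by Villin in the intestinal epithelium and switched on by tamoxifen, deletes Wntless, the carrier that Wnt proteins need for secretion. By that genotype both groups carried the floxed allele, although the control samples are titled Wls WT. Both had received AOM and DSS. Tamoxifen was injected 5 times, beginning 30 days before collection, in the Villin-Wls cKO mice, while controls had none unless the study says otherwise. Whole macrodissected tumor pieces were sequenced as polyadenylated RNA, so each value is a mixture of tumor epithelium, stroma and immune cells, and a gene at a lower level can mean fewer cells of a type or less RNA per cell, which cannot be told apart. How many mice gave the 10 tumors is not stated, so n counts tumors and each p-value measures only the spread between tumors.

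The values are FPKM, sequenced fragments scaled to transcript length and to the fragments mapped in the library, and so allow levels of different genes to be compared. Read numbers are unknown, and precision rests on the spread between tumors. Summed FPKM ranged from 1265992 to 1533885 in controls and from 1207683 to 1341494 in Villin-Wls cKO tumors. Wls itself measured 72.9 ± 7.06 FPKM (SD, n = 5) in controls and 6.37 ± 4.89 FPKM (SD, n = 5) in Villin-Wls cKO tumors. Xist averaged 0.188 FPKM in controls and 590.1 FPKM in Villin-Wls cKO tumors, and the Y-linked Eif2s3y averaged 41.7 and 0.0771 FPKM, so the controls were male tissue and the others female, and genotype, tamoxifen and sex cannot be told apart in any comparison below. The pan-epithelial markers (Epcam, Cdh1, Krt8, Krt18, Krt19, Vil1 and Cldn7) were all present in every tumor, although Krt19 shared its values with Krt13 and Krt17. Villin-Wls cKO tumors 2 and 3 stood apart by squamous markers, with Krt5 at 469.5 and 669 FPKM and Trp63 at 16.3 and 17.0 FPKM against at most 0.315 and 0.0649 FPKM in the other 8 tumors. Control tumor 1 was high only for some of these markers, with Krt6a, whose values Krt4 shares, at 60.9 FPKM against at most 9.91 FPKM in the other controls, but Krt5 at 0.137 FPKM and Trp63 listed at 0. Differences between the groups are given as the change in mean log2(FPKM + 1), Villin-Wls cKO minus control, tested by limma over 16757 genes with Benjamini-Hochberg adjusted p-values and a threshold of 0.05.

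Ido1 (chromosome 8, 24584136 to 24597009, minus strand, GRCm38) was low in every control tumor and abundant in every Villin-Wls cKO tumor. Its FPKM was 6.27, 1.89, 1.44, 0.885 and 1.40 in control tumors 1 to 5 and 106, 223, 203, 83.6 and 223 in Villin-Wls cKO tumors 1 to 5. The groups did not overlap, control tumor 1 stood above the other controls, and Villin-Wls cKO tumors 4 and 1 held the lowest levels of their group. The means were 2.38 ± 2.21 FPKM (SD, n = 5) and 168 ± 67.5 FPKM (SD, n = 5), a ratio of means of 70.6, and the change was 5.72 on the log2 scale (SE 0.40). Leaving out control tumor 1 moved that change to 6.04, and leaving out Villin-Wls cKO tumors 2 and 3 moved it to 5.41. Among its neighbours within 100 kb, Adam3, a gene best known from sperm, averaged 0.220 FPKM in controls and 0.847 FPKM in Villin-Wls cKO tumors (change 0.44, limma adjusted p = 0.416). The neighbouring paralog Ido2, which lies 7803 bases from Ido1 on the same strand, and Adam18 were not analysed here.

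The order of the genes by level changed with Ido1. Afmid is left out of this order because its values belong to a shared locus. In controls Ido1 was the fourth of the 5 genes that remain. It lay below Wars (48.0 FPKM), Ahr (12.9 FPKM) and Tiparp (3.75 FPKM) and above Kynu (0.855 FPKM), and its range overlapped those of Tiparp and Kynu. In Villin-Wls cKO tumors it was the first, ahead of Wars (128 FPKM), and its range of 83.6 to 223 FPKM overlapped that of Wars. Ahr, Tiparp and Kynu, at 10.2, 5.43 and 0.542 FPKM, kept their order below these 2 genes without overlap between them.

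**Figure D1:**
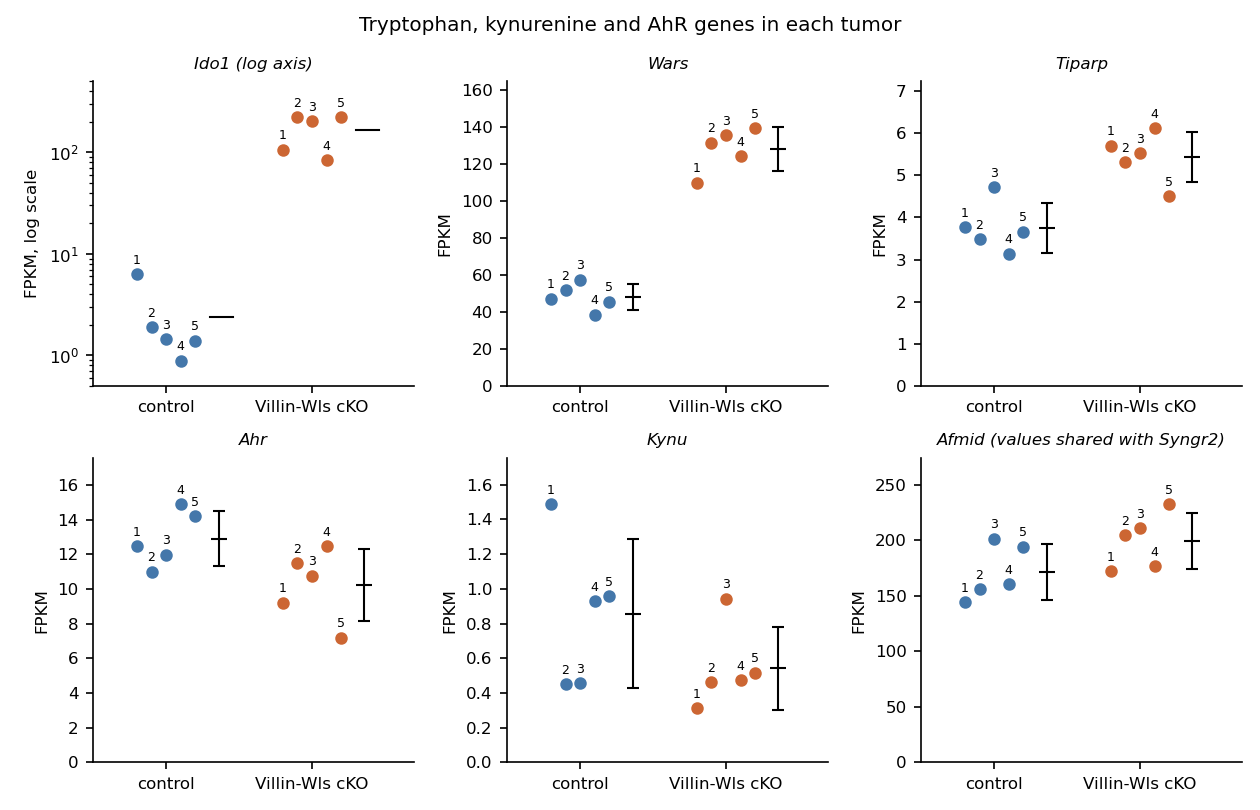
FPKM of the 6 genes in each of 5 control (blue) and 5 Villin-Wls cKO (orange) tumors, with tumor numbers above the points; the Ido1 axis is logarithmic, its horizontal marks are means, and in the other panels the marks are the mean and SD. Ido1 and Wars do not overlap between the groups, Tiparp overlaps only through Villin-Wls cKO tumor 5 and control tumor 3, and Ahr, Kynu and Afmid overlap.

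Of the 5 genes other than Ido1, 2 passed the threshold, Wars and Tiparp, both higher in Villin-Wls cKO tumors. Over all genes tested, 10.9% passed in either direction and 6.12% passed as higher. Wars was also the only one of the 5 whose groups did not overlap, as 5.33% of all genes did with the higher values in Villin-Wls cKO tumors, 4.76% with the lower and 10.1% in either direction. The median change over all genes tested was 0.01, so the scale was nearly centred.

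Wars (chromosome 12, 108860030 to 108894174, minus strand, GRCm38), the cytoplasmic tryptophanyl-tRNA synthetase, rose in Villin-Wls cKO tumors. It measured 47.1, 51.6, 57.3, 38.5 and 45.4 FPKM in control tumors 1 to 5 and 110, 131, 136, 124 and 139 FPKM in Villin-Wls cKO tumors 1 to 5. The groups were far apart, each was narrow, and the 2 lowest Villin-Wls cKO tumors were 1 and 4, as for Ido1. Of these, tumor 1 was the lowest for Wars and tumor 4 for Ido1. Among controls, tumors 4 and 5 were the lowest for both genes, but the highest was tumor 3 for Wars and tumor 1 for Ido1. The mean went from 48.0 ± 7.02 to 128 ± 11.7 FPKM (SD, n = 5 each), a ratio of 2.67 and a change of 1.40 (SE 0.11, limma adjusted p = 3.30e-05). Wdr25, which overlaps Wars on the opposite strand, had a change of -0.09 (limma adjusted p = 0.629).

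Tiparp (chromosome 3, 65528410 to 65555518, plus strand, GRCm38), the AhR-induced ADP-ribosyltransferase, rose by a smaller margin. Its levels were 3.76, 3.49, 4.71, 3.14 and 3.66 FPKM in control tumors 1 to 5 and 5.70, 5.31, 5.52, 6.12 and 4.50 FPKM in Villin-Wls cKO tumors 1 to 5. All but tumor 5 of the Villin-Wls cKO group lay above the highest control. The means were 3.75 ± 0.585 FPKM and 5.43 ± 0.600 FPKM (SD, n = 5 each), with a change of 0.44 (SE 0.11, limma adjusted p = 0.0291). The call depended on the tumors included: without any 1 of control tumors 1, 2, 4 and 5 or Villin-Wls cKO tumors 1 to 4 the change stayed between 0.39 and 0.45 but the limma adjusted p lay between 0.0509 and 0.0706, while without control tumor 3 it was 0.0134 and without Villin-Wls cKO tumor 5 it was 0.0253. With the replicate number as a block it was 0.0699, and without Villin-Wls cKO tumors 2 and 3 it was 0.105. A pseudogene on the opposite strand, 4931440P22Rik, overlaps the start of Tiparp and averaged 0.520 and 0.872 FPKM.

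Ahr (chromosome 12, 35497974 to 35535038, minus strand, GRCm38), the receptor itself, did not pass the threshold. It measured 12.5, 11.0, 12.0, 14.9 and 14.2 FPKM in control tumors 1 to 5 and 9.22, 11.5, 10.8, 12.5 and 7.19 FPKM in Villin-Wls cKO tumors 1 to 5. Villin-Wls cKO tumors 1, 3 and 5 lay below every control, and tumors 2 and 4 within the control range. The means were 12.9 ± 1.60 and 10.2 ± 2.08 FPKM (SD, n = 5 each), and the change of -0.32 (SE 0.14, limma adjusted p = 0.178) had a 95% interval from -0.63 to -0.01.

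Kynu (chromosome 2, 43555329 to 43682715, plus strand, GRCm38), which cleaves kynurenine, was scarce in both groups. It ranged from 0.452 to 1.49 FPKM in controls, highest in control tumor 1, and from 0.313 to 0.943 FPKM in Villin-Wls cKO tumors, highest in tumor 3. The change of -0.25 (SE 0.18, limma adjusted p = 0.415) had a 95% interval from -0.64 to 0.14, which holds both a fall and a small rise.

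Afmid (chromosome 11, 117825924 to 117839908, plus strand, GRCm38) could not be measured on its own. Its values were identical in every tumor to those of Syngr2, a vesicle protein gene that ends 11641 bases upstream, and of the read-through gene Gm20708 that spans both, so the level belongs to the locus. That level lay between 145 and 202 FPKM in controls, with a mean of 171 FPKM, and between 172 and 232 FPKM in Villin-Wls cKO tumors, with a mean of 199.5 FPKM. The change was 0.22 (SE 0.12, limma adjusted p = 0.267) with a 95% interval from -0.04 to 0.48.

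10 lists of genes around these were read from the same fit. Of 94 genes listed, 78 names were in the table and 76 distinct entries were tested, of which 14 were higher and 4 lower in Villin-Wls cKO tumors, 23.7% in all against 10.9% over all genes tested. The lists were written with earlier results of these data known, and the share is given as a description. For the counts below, 6.12% of all genes tested passed as higher and 4.75% as lower. Without overlap between the groups, 5.33% were higher and 4.76% lower.

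**Figure D2:**
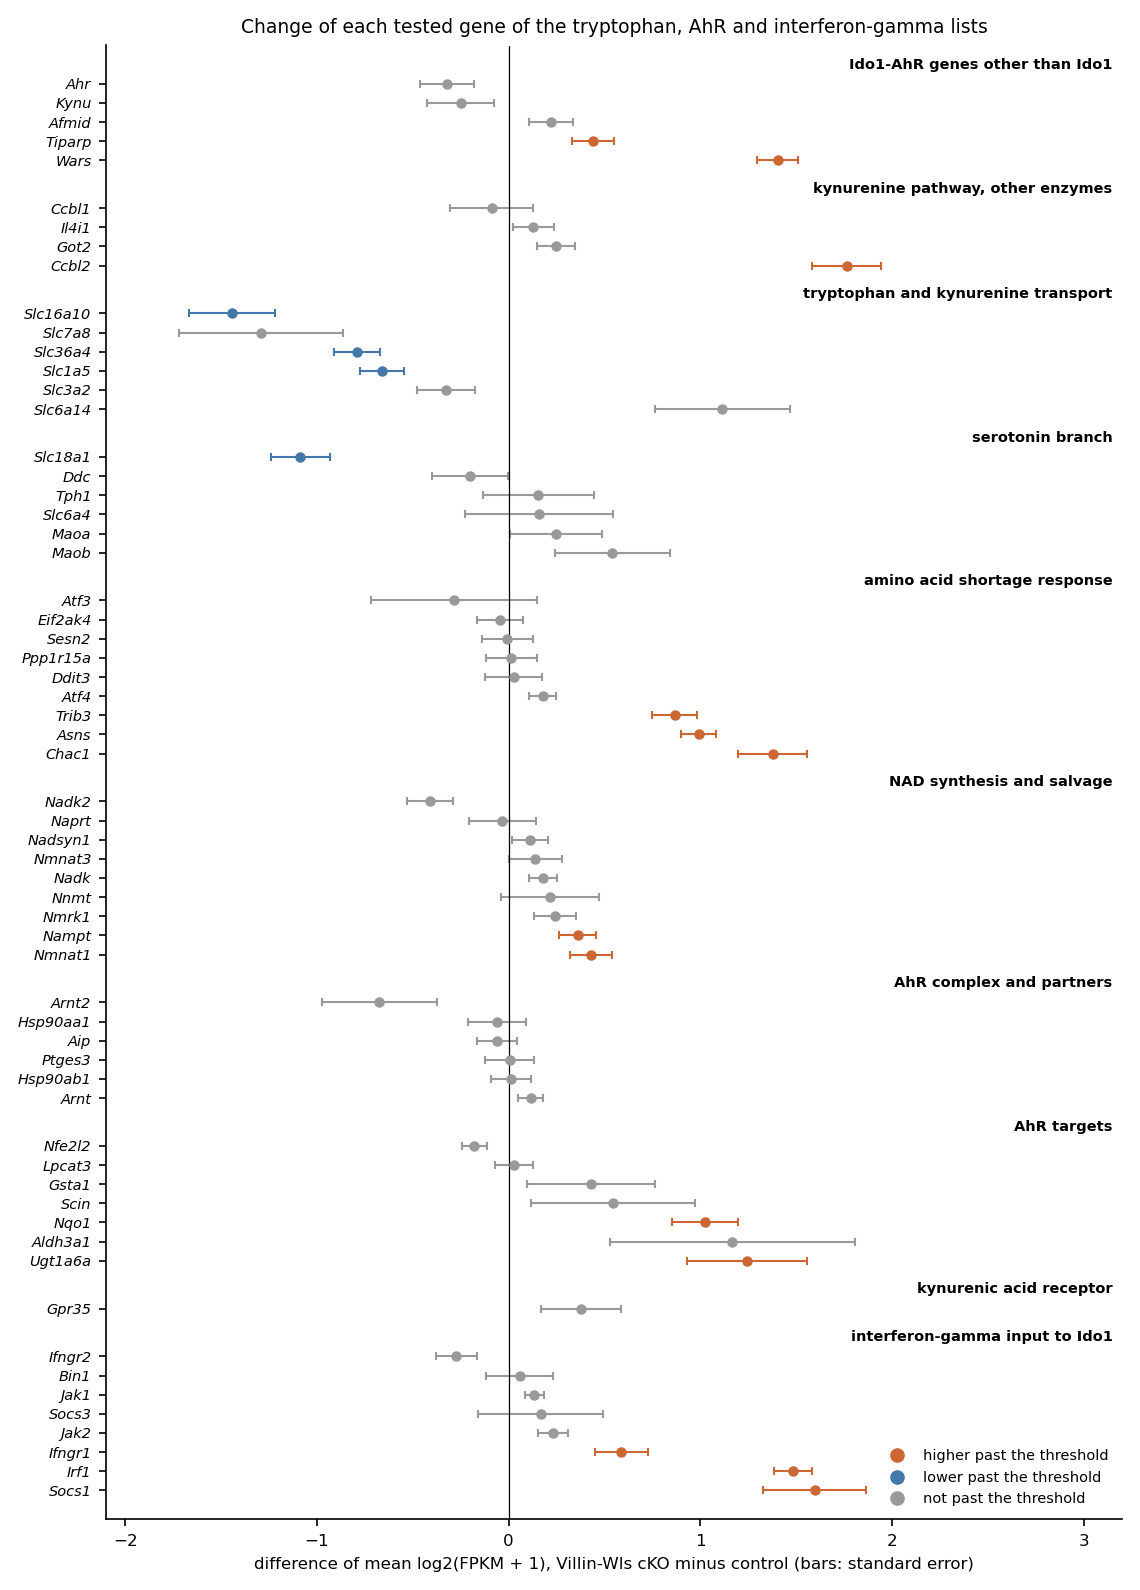
Change in mean log2(FPKM + 1), Villin-Wls cKO minus control, with its standard error, for every tested gene of the lists except Ido1 and the tRNA synthetases, grouped by list. Orange and blue points passed the threshold as higher and lower, and grey points did not. Wars, Ccbl2, Irf1 and Socs1 lie farthest to the right and Slc16a10 farthest to the left among those that passed.

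Among the other enzymes of kynurenine and aromatic amino acids, 1 of 4 tested passed, against 10.9% of all genes, and the median change was 0.19. Ccbl2, now named Kyat3 (chromosome 3, 142701051 to 142746870, plus strand, GRCm38), a kynurenine aminotransferase that makes kynurenic acid, measured 0.363, 0.880, 1.02, 1.26 and 1.01 FPKM in control tumors 1 to 5 and 4.07, 5.48, 4.20, 7.39 and 6.41 FPKM in Villin-Wls cKO tumors 1 to 5. It was higher in every Villin-Wls cKO tumor than in any control, with a change of 1.76 (SE 0.18, limma adjusted p = 0.000223). Its upstream neighbour on the same strand is the interferon-induced GTPase gene Gbp2, 63043 bases away, which averaged 13.7 FPKM in controls and 253 FPKM in Villin-Wls cKO tumors, while Gtf2b, 18175 bases downstream, averaged 45.6 and 52.7 FPKM. The part of read-through from Gbp2 in the Ccbl2 value was not tested. The second aminotransferase gene, Ccbl1, had a change of -0.09 (limma adjusted p = 0.846) with a 95% interval from -0.57 to 0.39, and Got2, a mitochondrial transaminase with the same side activity, 0.25 (limma adjusted p = 0.144). Il4i1, which encodes a secreted oxidase of aromatic amino acids, is counted among these 4. It shared its values with Nup62 and cannot be read on its own. Gpr35, a receptor for kynurenic acid, had a change of 0.38 (limma adjusted p = 0.290) with a 95% interval from -0.08 to 0.84.

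The amino acid carriers that passed were all lower. Of 6 tested carriers that take tryptophan, kynurenine or the amino acids exchanged for them, 3 fell and 0 rose, with a median change of -0.73, and over all genes 4.75% passed as lower. Slc16a10, a uniporter of aromatic amino acids, went from 25.1, 28.6, 19.8, 37.1 and 30.7 FPKM in control tumors 1 to 5 to 14.4, 10.1, 5.67, 8.25 and 11.3 FPKM in Villin-Wls cKO tumors 1 to 5, without overlap, and its change was -1.44 (SE 0.22, limma adjusted p = 0.00297). Slc36a4, a high-affinity carrier of tryptophan and proline, averaged 5.37 ± 0.574 and 2.70 ± 0.538 FPKM (SD, n = 5 each), with a change of -0.79 (limma adjusted p = 0.00276). Slc1a5, which brings in glutamine and other neutral amino acids, averaged 129.9 ± 15.5 and 82.0 ± 12.1 FPKM (SD, n = 5 each), with a change of -0.66 (limma adjusted p = 0.00496). For Slc36a4 as for Slc1a5 the groups did not overlap. Slc6a14, a broad sodium-driven importer, had the only positive change of the list, 1.11 (SE 0.35, limma adjusted p = 0.0711), with means of 21.7 ± 11.2 and 45.2 ± 13.8 FPKM (SD, n = 5 each). It passed without control tumor 3 (limma adjusted p = 0.0299), without Villin-Wls cKO tumor 2 (0.0390) and after rescaling each tumor to the same FPKM sum (0.0496). Slc7a8, an exchanger of large neutral amino acids, had a change of -1.29 (limma adjusted p = 0.0824), and Slc3a2, the heavy chain that such exchangers need, -0.33 (limma adjusted p = 0.205).

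Tryptophan can also be turned into serotonin, and of 6 tested genes of that branch 1 fell, against 4.75% of all genes. The median change of the branch was 0.16. Slc18a1, a vesicular monoamine transporter of enteroendocrine cells, averaged 32.3 ± 4.83 FPKM in controls and 14.9 ± 3.30 FPKM in Villin-Wls cKO tumors (SD, n = 5 each), without overlap, a change of -1.09 (SE 0.15, limma adjusted p = 0.00166). Tph1, the hydroxylase that starts serotonin synthesis in the gut, was scarce at 1.12 ± 0.818 and 1.24 ± 0.457 FPKM (SD, n = 5 each), with a change of 0.16 (limma adjusted p = 0.795). The 2 enteroendocrine markers in the table, Chga and Chgb, did not pass (limma adjusted p = 0.760 and 0.667), and their summed FPKM ran from 1.60 to 16.1 in controls and from 1.74 to 20.5 in Villin-Wls cKO tumors. Slc18a1 did not follow them in every tumor. It was at 32.4 and 31.4 FPKM in control tumors 1 and 4, where Chga was at 0.808 and 0.930 FPKM. In Villin-Wls cKO tumor 5 it was at 13.9 FPKM and Chga at 8.49 FPKM. Which cells carried Slc18a1 was not tested.

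Wars was set beside the synthetases of the other amino acids and the mitochondrial enzyme Wars2. All 20 of these had smaller changes than Wars, from -0.14 for Gars to 0.42 for Tars, with a median of 0.16. Among them 3 were higher, Tars (change 0.42, limma adjusted p = 0.0142), Kars (0.38, 0.0128) and Nars (0.34, 0.0212), the enzymes for threonine, lysine and asparagine, and 0 were lower. For comparison, 6.12% of all genes passed as higher. The call for Nars was lost without control tumor 2 (limma adjusted p = 0.0554) or control tumor 5 (0.0546), and those for Tars and Kars without Villin-Wls cKO tumors 2 and 3 together (0.0527 and 0.0731). Nars also did not pass under quantile normalization (limma adjusted p = 0.0601). Wars2 averaged 3.09 and 4.06 FPKM, a change of 0.28 (limma adjusted p = 0.375) with a 95% interval from -0.12 to 0.68.

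**Figure D3:**
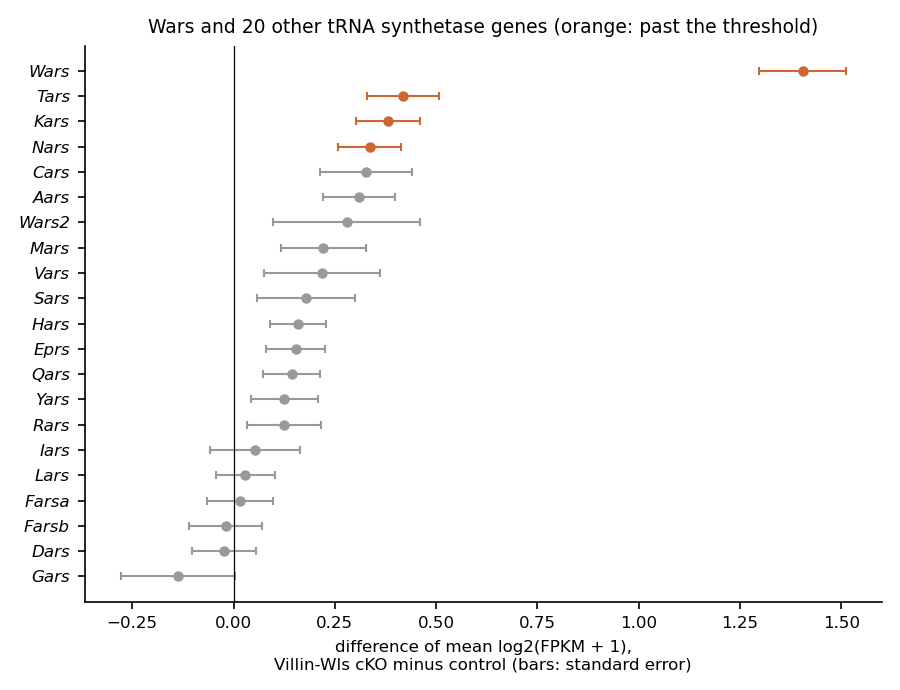
Change in mean log2(FPKM + 1), Villin-Wls cKO minus control, with its standard error, for Wars and 20 other tRNA synthetase genes. Wars lies at 1.40, the others between -0.14 and 0.42.

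Genes that answer a shortage of amino acids were read next, since tryptophan breakdown is a known trigger of the kinase Gcn2, the product of Eif2ak4. Of 9 tested, 3 were higher, against 6.12% of all genes, and 0 lower, and the median change was 0.03. Asns, asparagine synthetase, measured 24.6, 19.7, 20.6, 20.8 and 19.2 FPKM in control tumors 1 to 5 and 38.4, 38.9, 44.7, 50.3 and 41.3 FPKM in Villin-Wls cKO tumors 1 to 5, with a change of 0.99 (SE 0.09, limma adjusted p = 0.000121). Chac1, an enzyme that degrades glutathione, averaged 1.04 ± 0.321 and 4.37 ± 1.31 FPKM (SD, n = 5 each), with a change of 1.38 (limma adjusted p = 0.00109), and Trib3, a pseudokinase, 0.802 ± 0.254 and 2.26 ± 0.161 FPKM, with a change of 0.87 (limma adjusted p = 0.00130). None of these 3 overlapped between the groups, as was so for 5.33% of all genes on the higher side. The transcription factor Atf4, which drives all 3 and is itself controlled mostly at translation, had a change of 0.18 (limma adjusted p = 0.142), with every Villin-Wls cKO tumor above every control. The other targets of the pathway did not pass, with Ddit3 at 0.03 (limma adjusted p = 0.940) and a 95% interval from -0.30 to 0.35, Sesn2 at -0.01, Ppp1r15a at 0.01 and Atf3 at -0.29, and Eif2ak4 had a change of -0.04 (limma adjusted p = 0.861).

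Of 9 tested genes that make or use NAD and its precursors, 2 were higher, against 6.12% of all genes, and 0 lower. Their median change was 0.18. Nampt, the rate-limiting enzyme of NAD salvage, averaged 18.4 ± 2.57 and 23.8 ± 1.50 FPKM (SD, n = 5 each; change 0.36, limma adjusted p = 0.0369), and Nmnat1, which adds the adenylate, 3.56 ± 0.522 and 5.13 ± 0.601 FPKM (change 0.43, limma adjusted p = 0.0310). Neither overlapped between the groups, as was so for 5.33% of all genes on the higher side. Nampt lost its call without any 1 of control tumors 2, 3 and 5 or Villin-Wls cKO tumors 1 to 4 (limma adjusted p from 0.0673 to 0.0832), and Nmnat1 without any 1 of control tumors 2, 4 and 5 or Villin-Wls cKO tumors 1, 2 and 5 (0.0588 to 0.0755). With the replicate block the limma adjusted p was 0.0509 for Nampt and 0.0562 for Nmnat1, under quantile normalization 0.0764 and 0.0618, and without Villin-Wls cKO tumors 2 and 3 together 0.127 and 0.0851.

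For AhR, 0 of 6 tested partners and chaperones passed by limma, against 10.9% of all genes, and their median change was -0.03. Arnt2 had a change of -0.67 (limma adjusted p = 0.189) with a 95% interval from -1.34 to -0.01. Arnt, with which AhR binds DNA, had a change of 0.12 (limma adjusted p = 0.296) with a 95% interval from -0.03 to 0.26, and Hsp90ab1, the chaperone that holds AhR in the cytoplasm, averaged 928 and 935 FPKM. Of 7 distinct entries among the AhR targets, 2 were higher, against 6.12% of all genes, and 0 lower. Their median change was 0.54. Nqo1, a quinone reductase that NRF2 also controls, measured 11.4, 14.3, 12.8, 13.3 and 16.6 FPKM in control tumors 1 to 5 and 29.0, 17.9, 33.6, 35.2 and 30.9 FPKM in Villin-Wls cKO tumors 1 to 5, with a change of 1.02 (SE 0.17, limma adjusted p = 0.00438). The groups did not overlap, and Villin-Wls cKO tumor 2 came nearest to the controls. Ugt1a6a, a glucuronosyltransferase whose values are shared with 8 other names of the Ugt1a locus, averaged 11.4 ± 3.62 and 29.9 ± 14.4 FPKM (SD, n = 5 each; change 1.24, limma adjusted p = 0.0299). It lost its call without any 1 of control tumors 1, 2 and 4 or Villin-Wls cKO tumors 2, 3 and 5 (limma adjusted p from 0.0509 to 0.0731) and without Villin-Wls cKO tumors 2 and 3 together (0.108). Aldh3a1, an aldehyde dehydrogenase, was at 10.4 and 15.1 FPKM in the keratin-rich Villin-Wls cKO tumors 2 and 3 and at most 1.34 FPKM in the other 8 tumors (limma adjusted p = 0.287). Nfe2l2, which encodes NRF2, had a change of -0.18 (limma adjusted p = 0.110). The most used readouts of AhR, Cyp1a1 and Cyp1b1, were not analysed here.

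Genes linked to interferon-gamma signaling or to Ido1 included the list member with the smallest adjusted p, Irf1. Of 8 tested, 3 were higher, against 6.12% of all genes, and 0 lower, with a median change of 0.20. Irf1, the interferon-induced transcription factor that acts on Ido1, measured 45.2, 55.1, 49.7, 44.5 and 49.7 FPKM in control tumors 1 to 5 and 149.9, 139, 157, 111 and 138 FPKM in Villin-Wls cKO tumors 1 to 5, with a change of 1.48 (SE 0.10, limma adjusted p = 1.18e-05). Tumor 4, the lowest of its group for Ido1, was also the lowest for Irf1. Tumor 5, near the top for Ido1, was nearly level with tumor 2 for Irf1 (138.3 and 138.5 FPKM) and the lowest for Socs1 at 6.25 FPKM. Socs1, the induced inhibitor of the receptor signal, averaged 3.19 ± 1.07 and 12.1 ± 4.90 FPKM (SD, n = 5 each), a change of 1.60 (SE 0.27, limma adjusted p = 0.00463). Ifngr1, the ligand-binding receptor chain, averaged 66.7 ± 9.21 and 102 ± 19.7 FPKM (SD, n = 5 each), a change of 0.59 (limma adjusted p = 0.0228), and lost its call without any 1 of control tumors 2, 4 and 5 or Villin-Wls cKO tumor 5 (limma adjusted p from 0.0506 to 0.0568). The second chain Ifngr2 had a change of -0.27 (limma adjusted p = 0.134), and the kinases Jak1 and Jak2 0.13 and 0.23 (limma adjusted p = 0.125 and 0.0888). Socs3 and Bin1, also among those tested, had changes of 0.17 and 0.06 (limma adjusted p = 0.805 and 0.877). The ligand gene Ifng itself was below the filter of a mean FPKM of 0.5. It was listed at 0 in control tumors 1, 2, 3 and 5 and at 0.0584 FPKM in control tumor 4, and at 0.648, 1.35, 0.719, 0.185 and 0.387 FPKM in Villin-Wls cKO tumors 1 to 5.

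The promoters of Tiparp and Irf1 are shown because these genes, of the AhR target and the interferon arm, were higher and carry the short recognition letters linked to that arm. Each window runs from 250 bases before to 50 bases after a RefSeq transcript start (GRCm38.p6), and capitals mark the match. For Tiparp (chr3:65528197-65528496, plus strand) the letters are the AhR core GCGTG, here as its reverse complement CACGC. For Irf1 (chr11:53769764-53770063, plus strand) they are the interferon-gamma-activated site TTCNNNGAA, which reads the same on both strands.
Tiparp: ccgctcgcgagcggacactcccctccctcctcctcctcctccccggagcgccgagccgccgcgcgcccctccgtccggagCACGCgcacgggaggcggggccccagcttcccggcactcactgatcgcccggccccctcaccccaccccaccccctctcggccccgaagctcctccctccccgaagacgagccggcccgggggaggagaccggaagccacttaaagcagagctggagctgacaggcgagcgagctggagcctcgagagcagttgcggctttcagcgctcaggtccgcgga
Irf1: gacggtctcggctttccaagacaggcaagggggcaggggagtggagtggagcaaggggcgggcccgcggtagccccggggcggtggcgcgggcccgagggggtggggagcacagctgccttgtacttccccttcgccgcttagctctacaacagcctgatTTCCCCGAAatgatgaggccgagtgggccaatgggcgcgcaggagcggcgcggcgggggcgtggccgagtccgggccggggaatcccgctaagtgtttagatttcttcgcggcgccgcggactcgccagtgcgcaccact
Both strands were searched in 32851 promoter windows of 300 bases. The AhR core is short and was present in 10639 of them (32.4%), and the interferon-gamma-activated site in 2726 (8.30%), so either match describes these letters only and is no evidence of binding. The Tiparp window held 1 AhR core and no interferon-gamma-activated site, the Irf1 window shown held 1 of each, and the Afmid window held neither. The window of Nqo1 held no AhR core, and those of Socs1 and of a second Irf1 start no interferon-gamma-activated site. That second Irf1 window held 2 AhR cores, and the window of Ccbl2 (Kyat3) held 2 AhR cores and no interferon-gamma-activated site. Promoters were on hand for 2 of the 6 genes, Tiparp and Afmid.

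Markers of several cell types were read in the same tumors, whether or not the type is known to express Ido1. Of 6 tested T cell markers, 4 were higher, Cd3d, Cd3e, Cd3g and Cd8a, against 6.12% of all genes, and Cd4 and Cd2 did not pass. Cd3d passed narrowly (limma adjusted p = 0.0494) and its groups overlapped, at means of 0.481 and 1.83 FPKM. Cd8a measured at most 0.184 FPKM in controls and from 0.384 to 1.41 FPKM in Villin-Wls cKO tumors (change 0.88, limma adjusted p = 0.00673). The summed FPKM of the T cell list ran from 4.04 to 9.16 in controls and from 9.38 to 20.9 in Villin-Wls cKO tumors, highest in tumors 2 and 3. Of 7 tested macrophage markers 0 passed by limma and 1 had an unadjusted p under 0.05 (summed FPKM 160 to 326 in controls and 129 to 318 in Villin-Wls cKO tumors), and of 5 dendritic cell markers 0 passed and 1 did unadjusted (8.42 to 17.7 and 6.04 to 16.7). In Villin-Wls cKO tumors 1 to 5 the macrophage sums were 134, 270, 318, 211 and 129 FPKM, so that tumors 2 and 3, high for Ido1, had the highest sums and tumor 5, also high for Ido1, the lowest. Of the 7 pan-epithelial markers 0 passed by limma and 3 did unadjusted (5974 to 8414 and 7208 to 9219, of which the shared Krt19 entry averaged 3027 and 3504). Neutrophil markers, of which 0 of 5 passed by limma and 4 did unadjusted, summed to 225 to 750 FPKM in controls and 579 to 1205 FPKM in Villin-Wls cKO tumors. The share of all genes with an unadjusted p under 0.05 is not given here. The unadjusted counts of these lists therefore have no background to be set against. The part of these cells in the Ido1 level was not tested.

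**Figure D4:**
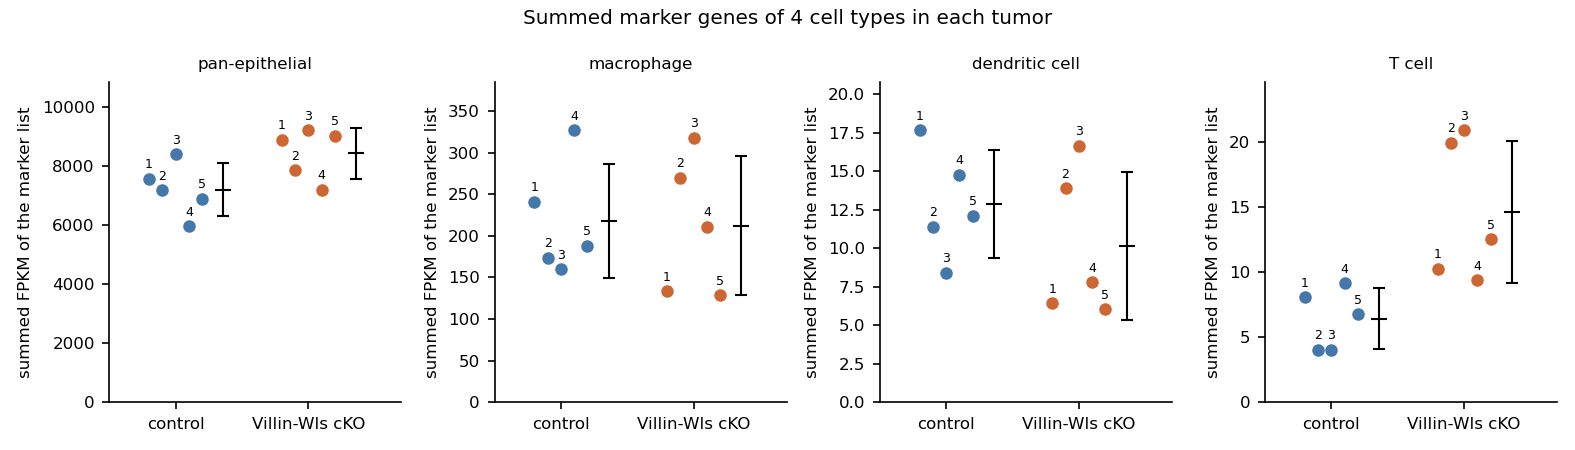
Summed FPKM of 4 marker lists in each of 5 control (blue) and 5 Villin-Wls cKO (orange) tumors, with tumor numbers, mean and SD. T cell sums lie between 4.04 and 9.16 in controls and between 9.38 and 20.9 in Villin-Wls cKO tumors, while the epithelial, macrophage and dendritic cell sums overlap.

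The genes whose profile over the 10 tumors lay nearest to that of Ido1 were found by the root mean square difference of log2(FPKM + 1), each gene centred on its own mean, among 15352 distinct entries. The 8 nearest were H2-Q7 (0.50), H2-Q6 (0.62), Gm13394 (0.80), Gbp2 (0.88), Gm12185 (0.89), Iigp1 (0.98), Ccl5 (1.07) and H2-Q5 (1.14). The H2-Q genes encode class I antigens and are near-identical copies whose reads can be split between them, Gbp2 shared its values with Gbp2b and Gm12185 with Tgtp1, Iigp1 is an interferon-induced GTPase and Ccl5 a chemokine. H2-Q7 measured 6.65, 3.38, 2.90, 5.10 and 3.88 FPKM in control tumors 1 to 5 and 91.9, 279, 257, 126 and 279 FPKM in Villin-Wls cKO tumors 1 to 5. Its highest control and its 2 lowest Villin-Wls cKO tumors were those of Ido1, which a choice by likeness over these same tumors favours. By the same measure Wars ranked 175 (2.24), Tiparp 1571 (2.73), Afmid 3049 (2.82), Kynu 12083 (3.03) and Ahr 13627 (3.11). This measure favours genes with a difference as large as that of Ido1, and with each profile divided by its SD the nearest were Ciita, Parp12, Nkg7, H2-K1, Tap1, H2-D1, Gbp2 and H2-Q6, of which 2 were among the first 8.

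**Figure D5:**
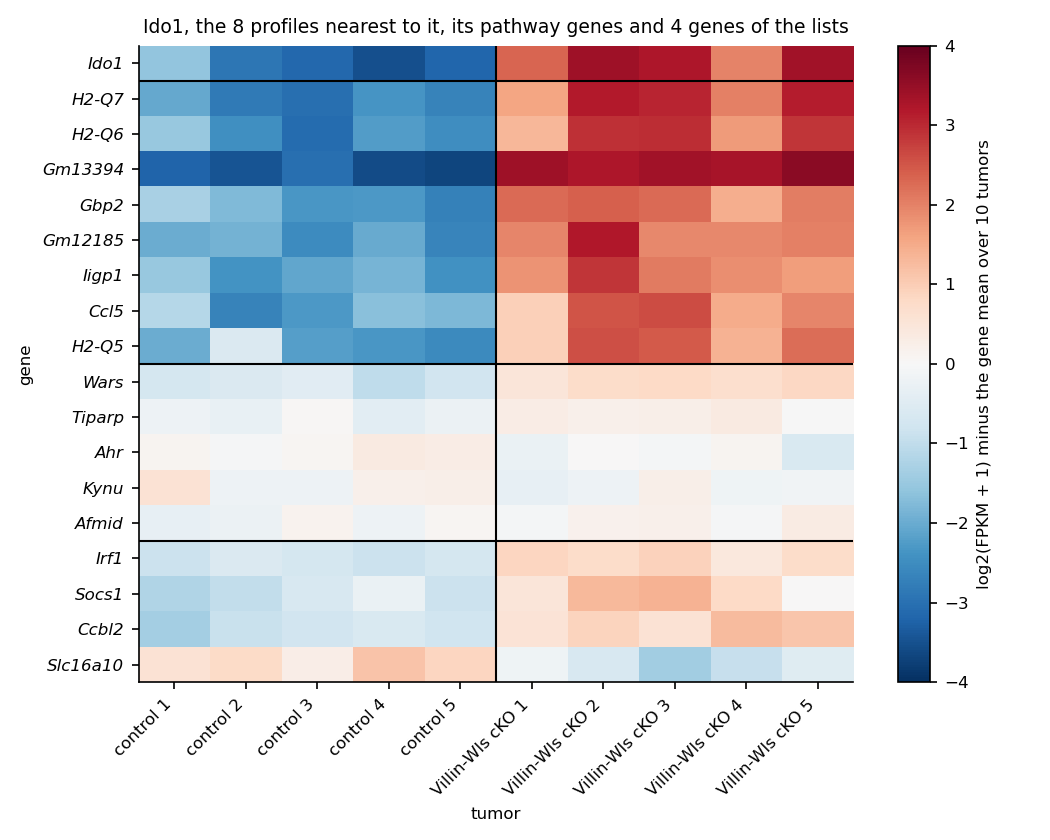
Profiles of Ido1, the 8 genes nearest to it, the other 5 genes of its pathway and 4 genes of the lists over the 10 tumors, as log2(FPKM + 1) minus the mean of the gene. Ido1 and H2-Q7 are lightest in control tumor 1 among controls and in Villin-Wls cKO tumors 1 and 4 among the others, and Wars, Tiparp, Ahr, Kynu and Afmid vary within a much smaller range.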

How the data were processed

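RNA of 10 macrodissected colon tumors, 5 control and 5 Villin-Wls cKO, had been sequenced from stranded mRNA libraries. Per the labels and the methods, the authors used FastQC for read quality, TopHat2 2.1.1 for mapping to GRCm38.p5, and Cufflinks 2.2.1 and Cuffdiff for quantification. The deposited values are FPKM by the authors. The choice of gene names and any use of strand by Cuffdiff are not given in the sources used here. All columns were matched to a tumor by their labels (0 left over). Depth is unknown, so no counting error can be given.

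A limma 3.58.1 fit with trend (R 4.3.3) compared the groups on log2(FPKM + 1) without covariates, over the 16757 genes whose mean FPKM reached 0.5, with two-sided p-values adjusted by Benjamini-Hochberg over all of them. The code was tested on simulated data. Overlap of groups compares their lowest and highest tumors. Positions are from GENCODE M21 on GRCm38, and promoters from RefSeq. Genes named are all members of the set, list genes past the threshold or, where none passed, the most abundant, genes whose role is stated, and the 8 profiles most like Ido1. The members and lists were chosen with earlier results of these data known, list genes without a row in the table were not analysed here, and 1 other gene is not reported here. Alternatives varied the pseudocount (0.1), scaling, filter, variance model, tumor weights, replicate block and the tumors included.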

Additional observations from a re-analysis of the deposited data

Results flagged for a closer look

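In 4 of 126 groups of 5 tumors, 1 tumor lay so far from the others that its gap to the nearest exceeded 0.71 of the range of the group (Dixon's critical value at the 95% level), where chance alone gives about 5 in 100. Control tumor 1 was high for Ido1 at 6.27 FPKM (0.813 of the range) and for the exchanger chain Slc3a2 at 107 FPKM (0.740). Villin-Wls cKO tumor 3 was high for Sesn2 at 11.7 FPKM (0.792), and control tumor 5 was high for the nicotinamide riboside kinase Nmrk1 at 2.08 FPKM (0.871). Control tumor 1 is also the control with the most Krt6a, and any link was not tested.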

How the results depend on the processing

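Over all genes, 1822 passed (1026 higher, 796 lower). Leaving out Villin-Wls cKO tumors 2 and 3 gave 1101, and leaving out control tumor 1 as well, chosen after seeing the data, gave 1016. Leaving out 1 tumor gave 1229 to 1986. Rescaling to the same FPKM sum gave 1373 higher and 410 lower, and quantile normalization 893 higher and 1125 lower. Of the 5 genes other than Ido1, the 2 that passed became 1 (Wars) with the replicate block, without tumors 2 and 3, and without control tumor 1 as well, and 1 to 2 when 1 tumor was left out. At a mean FPKM of at least 5 it was also 1, of 3 tested, since Tiparp fell below the filter. Under the main filter, Tiparp had a limma adjusted p of 0.150 without control tumor 1 and Villin-Wls cKO tumors 2 and 3. The 19 list names that passed (both Ugt1a6 names counted) became 13 and 11 under the same omissions and 13 to 20 when 1 tumor was left out. Of the original 19, 13 and 11 remained, and 16 did under quantile normalization. The change of Ido1 stayed between 5.41 and 6.31 and that of Wars between 1.33 and 1.50. For Kynu, the log2 ratio of mean FPKM was -0.66. With profiles divided by their SD, 2 of the 8 genes nearest to Ido1 were shared, and 6 without tumors 2 and 3. The replicate numbers do not pair tumors, with same-number correlations from -0.09 to 0.16. The replicate block gave 1627 genes and kept 17 of the 19 list names. The cause of these shifts was not tested. Unknown read depth limits what can be said of Kynu, Ifng and other genes near 0.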
